A study of Mus musculus with 34 samples.

Results

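A set of 7 well studied paternally expressed imprinted genes of the mouse was looked up on the arrays: Igf2, Dlk1, Mest, Peg3, Ndn, Snrpn and Impact. Members were the probe sets whose only gene symbol in the platform's annotation is 1 of these names. The rule found 10 probe sets of 6 genes among 12422 probe sets that are not controls; for Snrpn no probe set was found by it and no level is given. Igf2 and Ndn had 2 probe sets each, Peg3 had 3, and Dlk1, Mest and Impact had 1 each. All 10 are reported, since the probe sets of a gene did not always give the same picture.

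The series profiled RNA of mouse pluripotent cells and somatic control cells on Affymetrix arrays, and 32 arrays in 10 groups were used. The inner cell mass (ICM, 3 arrays) was taken by immunosurgery from E3.5 blastocysts of mixed sex; replicates 2 and 3 were C57Bl/6 x C3H F1, and replicate 1 came from that hybrid crossed to CD1 (F1). Every other group was C57Bl/6. Primordial germ cells (PGC) were sorted for an Oct4/GFP signal at E11.5 (mixed sex, 4 arrays) and at E13.5 (3 female and 3 male arrays), and the SGM group (mixed sex, 4 arrays) holds the somatic cells that this sort left without GFP, from gonad mesonephros at E11.5. Embryonic stem cells (ESC, male, passage 9 to 14, 2 arrays) and embryonic germ cells (EGC, male, derived from E12.5 PGCs, passage 19, 3 arrays) were grown in LIF and serum. Embryonic fibroblasts (MEF, E13.5, mixed sex, 6 arrays) were grown in serum to passage 2. Neural stem/precursor cells of the 8-week sub-ventricular zone (NSC, mixed sex, 2 arrays) were neurospheres at passage 1 in EGF, and bone-marrow haematopoietic stem/precursor cells of 8-week males (HSC, 2 arrays) were sorted from the side population as cells positive for Sca-1 and c-Kit and negative for CD34 and Lin. The labels call the replicates biological, but do not say whether animals were pooled or how many cell lines were grown.

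Imprinted genes are transcribed mainly from the allele of a single parent. The choice rests on DNA methylation laid down in the egg or the sperm at imprinting control regions, kept through the genome-wide demethylation of the early embryo, and erased in primordial germ cells before a new mark is set according to the sex of the embryo. Paternally expressed genes as a class are known for promoting fetal growth, and many are abundant in fetal mesenchyme and fall after birth. Arrays sum the RNA of both alleles, so a level shows how much RNA was present and nothing about which allele made it.

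Promoter sequences of Peg3, Mest and Ndn are shown because these 3 genes were higher in ESC than in the ICM by the probe sets described further on. Each is the 250 bases upstream of an annotated start in RefSeq, build GRCm38.p6, written 5′ to 3′ on the gene's strand, with every CG dinucleotide, the site of DNA methylation, in capitals. Where a gene has several starts, the start shown is the one with the most CG dinucleotides among those with no other start of that gene in the 2000 bases upstream.
Peg3 (chr7:6730420-6730669, - strand): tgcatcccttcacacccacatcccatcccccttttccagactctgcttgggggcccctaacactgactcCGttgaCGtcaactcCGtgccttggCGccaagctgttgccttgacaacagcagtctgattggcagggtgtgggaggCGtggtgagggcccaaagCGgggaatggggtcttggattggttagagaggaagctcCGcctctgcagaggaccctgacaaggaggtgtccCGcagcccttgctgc
Mest (chr6:30737800-30738049, + strand): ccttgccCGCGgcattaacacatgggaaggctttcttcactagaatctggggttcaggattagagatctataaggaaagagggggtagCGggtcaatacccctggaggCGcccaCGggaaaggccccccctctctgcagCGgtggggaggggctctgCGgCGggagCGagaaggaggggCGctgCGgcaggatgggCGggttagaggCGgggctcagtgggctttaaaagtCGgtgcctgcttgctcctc
Ndn (chr7:62348027-62348276, + strand): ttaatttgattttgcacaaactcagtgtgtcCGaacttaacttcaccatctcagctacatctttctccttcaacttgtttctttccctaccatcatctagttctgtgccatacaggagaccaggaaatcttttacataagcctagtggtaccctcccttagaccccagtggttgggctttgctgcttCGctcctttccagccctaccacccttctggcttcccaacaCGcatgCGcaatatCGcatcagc
The Mest promoter held 14 CG dinucleotides, Peg3 held 8 and Ndn held 5, against a median of 6 over 32851 promoters of the same length. Igf2 and Dlk1, which did not pass the test between ESC and ICM, held 22 and 8. On either strand, TGCCGC, the hexamer bound by the imprint-keeping protein ZFP57 when methylated, occurred 2 times in the Mest promoter and was not among the letters of the other 4 windows; 8.68% of all promoters held it. The GC box GGGCGG, searched on both strands, occurred once in Mest and once in Igf2 and in 32.74% of all promoters. The arrays do not measure methylation or binding at these windows. Choosing the start with the most CG dinucleotides was done for these genes and not for the promoters behind the median. Another Mest start held 7, and the other Igf2 starts held 10, 6 and 1.

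Within groups, arrays correlated at 0.978 to 0.997 over all probe sets. Values are log2 signals, and their number of arrays, not read depth, limits the precision. The 6 pluripotency markers summed to 13.54 to 14.82 (log2 of the summed signal) in ICM, PGC, ESC and EGC arrays and to 8.50 to 8.98 in SGM, MEF and HSC arrays; NSC arrays lay between at 12.01 to 12.30. The 9 mesenchyme markers summed to 17.41 to 17.64 in MEF and 15.31 to 15.59 in SGM, and 10.49 to 13.02 elsewhere. Neural stem markers were highest in NSC (14.36 to 14.37) and haematopoietic markers in HSC (11.85 to 11.92). Up to 13 probe sets on a MEF array exceed 16, the ceiling of a 16-bit scanner, against 0 in other groups, and the control rows of NSC and HSC correlate with those of ESC at 0.223 to 0.332 (0.935 to 0.995 in the other groups). The actin 3′ minus 5′ difference, a sign of RNA integrity and amplification, ran from 0.16 to 1.25 in the PGC, SGM and MEF arrays and from 1.21 to 1.99 in the ICM, ESC and EGC arrays. It ran from 0.08 to 0.41 in NSC and from 0.26 to 0.53 in HSC arrays. Its part in the comparisons between groups was not tested. In such bulk RNA, fewer cells of a type and less RNA per cell cannot be told apart.

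Igf2 encodes a fetal growth factor that signals through the receptors Igf1r and Insr. Its brighter probe set, 98623_g_at, spanned a 99.0-fold range of group means, the widest of the 10. Both embryonic somatic groups were highest: SGM arrays read 15.92, 15.67, 15.79 and 15.82, and MEF arrays ran from 15.72 to 15.86 with a median of 15.80. These values lie just under the scanner's ceiling, and 98623_g_at was the brightest probe set on each SGM array. Whether the ceiling makes any fold against SGM or MEF too small was not tested. Female E13.5 PGC arrays read 13.503, 13.68 and 13.95, and male ones 13.11, 12.73 and 13.37. EGC arrays read 13.10, 13.10 and 12.92, and ICM arrays 12.43, 12.69 and 12.72. PGC E11.5 had the most scatter among the germ cell groups, with 12.29, 11.84, 11.58 and 12.67, and overlapped both ICM and ESC (12.01 and 12.16). Adult stem cells were lowest, at 10.07 and 9.70 in HSC and 9.03 and 9.32 in NSC.
In the order of Igf2 levels, the neighbours MEF and SGM, male E13.5 PGC and EGC, EGC and ICM, and PGC E11.5 and ESC did not pass the test. The second Igf2 probe set, 98622_at, told none of this: its group means spanned 1.48-fold, all 32 arrays lay between 5.95 and 6.89, and no neighbouring pair of groups passed. Over the 10 group means, the 2 probe sets correlated at r = 0.52 (0.28 over the 32 arrays, which share groups).

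Dlk1 encodes a membrane protein with EGF-like repeats, related to Notch ligands and known as an inhibitor of fat cell differentiation. It was highest in SGM, where arrays read 11.10, 10.73, 10.83 and 10.64, and next in MEF, with 9.13 to 9.52 and a median of 9.38. Everywhere else the group means lay within 7.70 (NSC) to 8.72 (male E13.5 PGC), with no array above 8.84. SGM stood above MEF, and MEF above the next group, male E13.5 PGC, without overlap; among the other 8 groups only female E13.5 PGC over HSC (0.30 ± 0.13 SE, adjusted p = 0.0452) and PGC E11.5 over ICM passed between neighbours.

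Mest encodes an enzyme-like protein of the alpha/beta hydrolase fold in the endoplasmic reticulum. Its group means spanned 67.1-fold. SGM was highest again, at 11.33, 11.48, 11.40 and 11.46. The second place fell to an adult cell type, NSC, with 10.43 in both arrays. EGC (8.81, 9.01 and 9.18) lay above ESC (8.17 and 8.04). MEF, with 7.54 to 8.15 and a median of 7.79, lay far below SGM and among the germ cells: male E13.5 PGC read 8.23, 7.79 and 7.82, PGC E11.5 read 7.52, 7.34, 7.01 and 8.03, and female E13.5 PGC read 7.21, 7.86 and 6.997. ICM (6.77, 6.79 and 6.52) and HSC (5.02 and 5.68) were lowest. Neighbours from ESC down to female E13.5 PGC did not pass the test; the steps above and below them did.

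Peg3 encodes a large zinc-finger protein of the nucleus. Its brightest probe set, 96765_at, fell into a broad upper range and a low pair of groups. SGM arrays read 13.46, 13.4998, 13.43 and 13.46, above every other array of the series. PGC E11.5 read 12.38, 12.62, 12.54 and 12.17, EGC 12.24, 12.38 and 12.38, female E13.5 PGC 11.80, 11.79 and 12.06, and ESC 11.78 and 11.91. MEF ran from 11.36 to 11.65 with a median of 11.54, male E13.5 PGC read 11.04, 11.40 and 11.23, and NSC 11.08 and 11.16. From PGC E11.5 down to NSC no neighbouring pair passed the test, although PGC E11.5 and NSC differ by 1.30. ICM, at 8.08, 7.81 and 7.65, lay 3.28 ± 0.26 (SE) below NSC (adjusted p = 2.14e-11). HSC arrays read 8.02 and 6.22, so far apart that their mean is poorly fixed.
The other Peg3 probe sets had smaller spans (4.65-fold for 161316_f_at and 2.88-fold for 101451_at against 81.1-fold). Their correlation with 96765_at over the 10 group means was 0.90 and 0.76. Both put SGM first and ICM and HSC among the 3 lowest groups.

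Ndn encodes necdin, a MAGE family protein that restrains proliferation and is best known from post-mitotic neurons. Its brighter probe set, 101059_at, spanned 24.3-fold. MEF ran from 11.76 to 12.21 with a median of 12.14 and SGM read 11.58, 11.93, 11.77 and 11.80. NSC (10.86 and 10.43) and the 3 PGC groups shared a plateau: female E13.5 PGC read 10.70, 10.54 and 10.68, PGC E11.5 10.37, 10.64, 10.32 and 10.40, and male E13.5 PGC 10.32, 10.28 and 10.17. Neighbours on that plateau did not pass the test. EGC (9.96, 9.73 and 9.84), HSC (9.24 and 9.12), ESC (8.70 and 9.13) and ICM (7.51, 7.26 and 7.54) followed, and every step of these but HSC over ESC passed. The dimmer Ndn probe set 94811_s_at differed in its order. It put NSC (9.28 and 8.81) above MEF (8.26 to 8.88) and held HSC (7.50 and 7.46) above every PGC group, and the 2 Ndn probe sets correlated at r = 0.62 over the group means.

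Impact encodes an inhibitor of the stress kinase Gcn2 (gene Eif2ak4), so it acts on translation. Its only probe set, 101501_r_at, spanned 5.53-fold, with MEF highest (9.18 to 9.94, median 9.43). EGC followed at 8.93, 8.93 and 9.14, not separable by the test from SGM at 8.50, 9.04, 8.81 and 8.96. A step of 0.93 separated these from PGC E11.5 (7.82, 7.94, 7.96 and 7.86). Below it no neighbouring pair passed, from the E13.5 PGC groups (7.60 to 7.94) and ESC (7.78 and 7.45) to HSC (7.35 and 6.81) and NSC (7.05 and 7.02). The 3 ICM arrays were split, 7.54 and 7.52 against 6.39 in replicate 3.

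**Figure D1:**
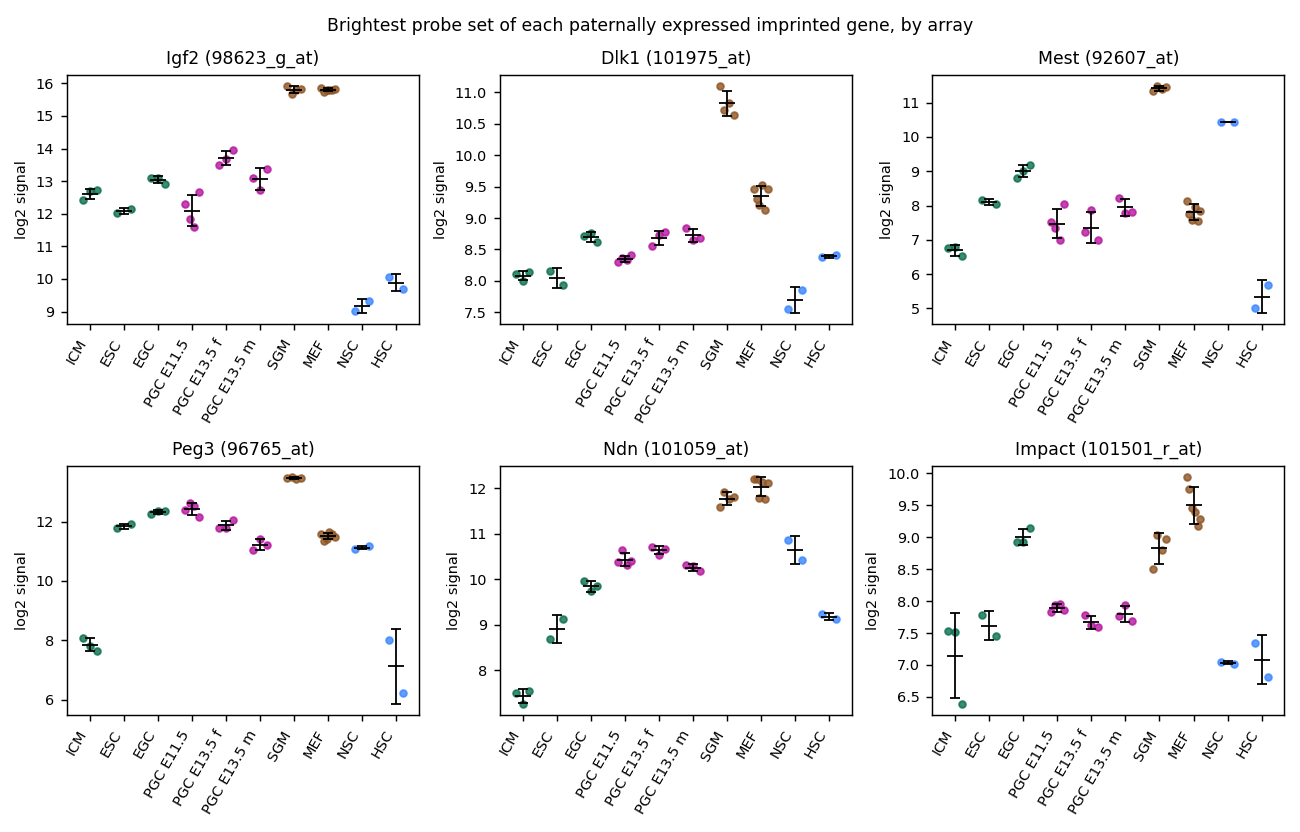
Log2 signal (vertical axis) of the brightest probe set of each gene in the 10 groups (horizontal axis); dots are arrays, horizontal dashes group means and bars 1 SD. Igf2 is near 15.80 in both SGM and MEF, Peg3 is low in ICM and HSC, and Mest is high in NSC as well as in SGM.

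**Figure D2:**
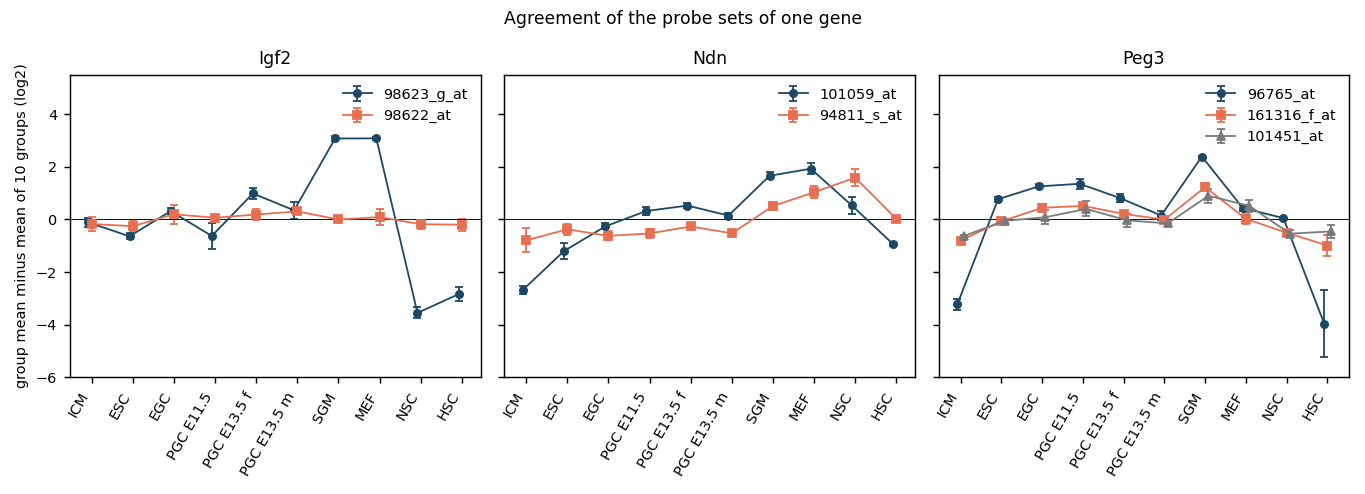
Group means of every probe set of Igf2, Ndn and Peg3, each as the difference from its own mean over the 10 groups (log2); bars are 1 SD over arrays. The Igf2 probe set 98622_at stays nearly level while 98623_g_at spans 99.0-fold, and all 3 Peg3 probe sets are highest in SGM, with unequal spans.

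Germ cells and the somatic cells around them come from the same E11.5 gonad and mesonephros, parted by the Oct4/GFP sort. All 6 genes were lower in the germ cells, by 9 of the 10 probe sets; none was higher (called either way over all probe sets, 44.6%; higher 21.2%, lower 23.4%). Mest fell by 3.94 on the log2 scale (SE 0.18, a 15.4-fold difference, adjusted p = 3.39e-16), Igf2 98623_g_at fell by 3.70 (SE 0.16, 13.0-fold, adjusted p = 6.71e-17) and Dlk1 fell by 2.47 (SE 0.10, 5.56-fold, adjusted p = 8.93e-18). Ndn 101059_at, Peg3 96765_at and Impact were lower by smaller amounts, 2.53-, 2.05- and 1.91-fold. Groups did not overlap for 8 of the 9, and only for Peg3 101451_at did they. How many of all probe sets lack overlap here was not counted. The median of the 10 differences was -1.04, against -0.03 over all probe sets.
Maternally expressed imprinted genes, many of them growth restrainers, mostly went the same way: of 19 probe sets of 15 genes, 11 were lower in PGC and 3 higher. Cdkn1c, an inhibitor of cyclin-dependent kinases, was lower by a difference of -3.57, while Phlda2, a brake on placental growth, was higher by 2.53. Other paternally expressed genes were split, with 4 of 15 probe sets higher and 5 lower: Sgce, a membrane glycoprotein, differed by -2.41 and Sfmbt2, a polycomb-related protein, by 4.27. Mesenchyme markers moved with the members: 13 of 15 probe sets were lower in PGC, and all 6 erythroid probe sets were lower too (summed signal 14.22 to 14.58 in SGM against 9.14 to 10.72). Their part in the differences was not tested.

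In E13.5 germ cells of each sex Igf2 was higher, and Peg3 lower, than in the mixed-sex E11.5 germ cells. In female cells, Igf2 98623_g_at was higher by 1.61 (SE 0.17, 3.06-fold, adjusted p = 1.04e-07) and no array overlapped. Dlk1 was higher by 0.34 (SE 0.11, adjusted p = 0.0175). Peg3 was lower by 161316_f_at (-0.30, SE 0.11, adjusted p = 0.0473) and 101451_at (-0.43, SE 0.16, adjusted p = 0.0484); its brightest probe set, at -0.55 (SE 0.22), missed with an adjusted p of 0.0605. That probe set was called lower with all 34 columns, with only the compared groups, with array weights, after centring, with the filter on dim probe sets and without PGC E11.5 replicate 4 (-0.55 to -0.64, adjusted p 0.000312 to 0.0479). Mest, both Ndn probe sets and Impact did not pass. The members' count of 4 (2 higher, 2 lower) stands beside 27.0% of all probe sets called, 14.1% higher and 12.9% lower. With each array centred on its median, 42.15% of all called probe sets were higher, against 52.27% as deposited. The Dlk1 call was lost without female replicate 2 or 3, and Peg3 161316_f_at was called in 1 and Peg3 101451_at in 2 of the 7 fits that each left out an array; only Igf2 was called in all 7.
In male cells 5 members were called, again Igf2 and Dlk1 higher and Peg3 lower. Igf2 98623_g_at was higher by 0.97 (SE 0.17, 1.96-fold, adjusted p = 7.58e-05) and Dlk1 by 0.37 (SE 0.11, adjusted p = 0.00589). All 3 Peg3 probe sets were lower, 96765_at by a difference of -1.21 (SE 0.22, 2.31-fold, adjusted p = 8.56e-05). Mest, at 0.47 higher, missed narrowly (adjusted p = 0.0513; 0.55 higher and 0.0207 with the replicate block). Here 47.3% of all probe sets were called, 30.0% higher and 17.3% lower, so 5 of 10 is near the background; the higher share of the called was 63.38% as deposited and 46.17% after centring. Both comparisons share the E11.5 arrays, which are of mixed sex, so neither gives a change within a single sex. Mesenchyme markers rose along in males (8 of 15 probe sets; 1 of 15 in females), as did 6 of 13 gonad and mesonephros probe sets (2 in females). Their part in these changes was not tested.
Among other imprinted genes, Phlda2 was higher by 1.64 in female cells and lower, by -2.05, in male ones. Slc38a4, an amino acid transporter expressed from the paternal allele, was lower in both, by -1.03 and -1.76, and Sfmbt2 likewise, by -1.35 and -2.28.

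Set directly against each other, female and male E13.5 germ cells differed in 1 member probe set. Igf2 98623_g_at was 0.64 higher in female cells (SE 0.18, 1.56-fold, adjusted p = 0.0311), and the 3 female arrays (13.503 to 13.95) lay above the 3 male ones (12.73 to 13.37). Both share the same mixed-sex E11.5 arrays as their earlier stage, so whether the sexes already differed at E11.5 cannot be told. The call was lost without female replicate 2 or 3, without male replicate 1 or 2 (adjusted p 0.0571 to 0.2) and when these 2 groups were fitted alone (adjusted p = 0.092). Peg3 96765_at (0.66 higher in females, SE 0.23, adjusted p = 0.0864) and Ndn 101059_at (0.38, SE 0.14, adjusted p = 0.097) did not overlap either but missed the threshold, and Mest was at -0.59 (SE 0.21, adjusted p = 0.101). In the fit of these 2 groups alone Peg3 96765_at (adjusted p = 0.027) and Ndn 101059_at (adjusted p = 0.0465) passed. With array weights Peg3 96765_at (adjusted p = 0.00413), Ndn 101059_at (adjusted p = 0.021) and Mest (-0.55, adjusted p = 0.0378) passed. Over all probe sets 6.85% were called, 4.77% higher and 2.08% lower in females. Of the maternally expressed list, 3 of 19 probe sets were higher in females and none lower: Phlda2 (3.69), Slc22a18 (2.03), a transporter, and Igf2r (1.15), the receptor that clears Igf2 from the cell surface.

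The ICM precedes, and the PGC follow, the epiblast stage in the same lineage. The ICM was of hybrid crosses and the PGC were C57Bl/6, so stage and strain cannot be told apart. Peg3 and Ndn differed most between these groups. Peg3 96765_at was lower in the ICM (-4.58, SE 0.22, 24.0-fold, adjusted p = 1.04e-15), and its other probe sets were lower by 2.49- and 2.04-fold. Ndn 101059_at was lower by 8.0-fold (-3.00, SE 0.13, adjusted p = 9.59e-17), with ICM arrays at 7.26 to 7.54 against 10.32 to 10.64. The dimmer Ndn probe set did not pass (-0.26, adjusted p = 0.198). Mest (-0.78, SE 0.20, adjusted p = 0.00246), Impact (-0.75, SE 0.20, adjusted p = 0.00383) and Dlk1 (-0.27, SE 0.11, adjusted p = 0.0422) were lower as well. Igf2 98623_g_at alone was higher in the ICM (0.51, SE 0.17, adjusted p = 0.0183), with overlapping arrays. The tally of 1 higher and 7 lower stands beside 41.3% called over all probe sets, 18.0% higher and 23.3% lower.
Without ICM replicate 3, Impact fell to a difference of -0.37 and lost its call, as did Dlk1 and Igf2, leaving 5 calls; Dlk1 also lost it with the replicate block (adjusted p = 0.0593). Dlk1 kept its call in 1 of 7 fits leaving out an array, and Igf2 in 3. Trophectoderm markers were higher in the ICM (6 of 7 probe sets; summed signal 10.02 to 12.72 against 9.01 to 9.67), as were primitive endoderm markers (7 of 10; 11.17 to 12.80 against 9.95 to 10.36). Their part in the differences was not tested.

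Embryonic stem cells are derived from the ICM, and Peg3, Ndn and Mest were higher in ESC. The ICM was of hybrid crosses and mixed sex, and ESC were C57Bl/6 and male. Culture, strain and sex therefore cannot be told apart here. Peg3 96765_at read 11.78 and 11.91 in ESC against 7.65 to 8.08 in the ICM, a rise of 4.00 (SE 0.26, 15.97-fold, adjusted p = 2.44e-12). Its other probe sets were higher by 0.73 (161316_f_at, adjusted p = 0.000191) and 0.58 (101451_at, adjusted p = 0.0274). Ndn 101059_at was higher by 1.47 (SE 0.15, 2.78-fold, adjusted p = 2.48e-08) and Mest by 1.41 (SE 0.24, 2.66-fold, adjusted p = 6.24e-05). Arrays of the 2 groups did not overlap in any of these 5 probe sets, a share that was not counted over all probe sets. Dlk1 differed by -0.04 (SE 0.13) and Impact by 0.47 (SE 0.24, adjusted p = 0.154). Igf2 98623_g_at lay lower in ESC without overlap but missed the threshold, at -0.52 (SE 0.21, adjusted p = 0.0582). It was called lower with each array centred on its median (-0.59, adjusted p = 0.0327), with all 34 columns (adjusted p = 0.0208) and without ICM replicate 1 (-0.62, adjusted p = 0.0418).
In the fit of the 32 arrays as deposited, 5 of the 10 were called higher and none lower. Over all probe sets 27.3% were called, 15.6% higher and 11.8% lower; the median difference was 0.52 for the members and 0.05 for all. Centred on array medians, 44.24% of all called probe sets were higher, against 56.96% as deposited, and Peg3 101451_at lost its call (adjusted p = 0.0586), as it did without either ESC array or ICM replicate 3. Without ICM replicate 1, the array of the other cross, 8 members were called instead of 5, and Igf2 98623_g_at among them was lower. Trophectoderm (5 of 7 probe sets) and primitive endoderm markers (6 of 10) were lower in ESC, whose part was not tested. Mesenchyme markers were not higher in ESC in any of 15 probe sets, with 3 lower.
Genes that keep or read imprints also differed. Of 16 probe sets of 12 genes, 6 were higher in ESC and 2 lower: Tet1, which oxidises methylated cytosine, was higher by 1.14, Dnmt3a, a de novo methyltransferase, by 0.98, and Dppa3, which protects maternal methylation in the zygote, was lower by -1.98. Other paternally expressed genes had 5 of 15 probe sets higher and none lower, among them Sfmbt2 (1.14) and the adaptor Gab1 (0.77).

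Embryonic germ cells are pluripotent lines grown from PGCs. Set beside ESC, they were called higher in 6 of the 10 member probe sets and lower in none. Impact was higher by 1.38 (SE 0.24, 2.61-fold, adjusted p = 5.86e-05), Igf2 98623_g_at by 0.96 (SE 0.21, 1.94-fold, adjusted p = 0.000599) and Ndn 101059_at by 0.94 (SE 0.15, 1.91-fold, adjusted p = 2.41e-05). Mest (0.90, adjusted p = 0.00388), Dlk1 (0.66, adjusted p = 0.00018) and Peg3 161316_f_at (0.52, adjusted p = 0.00353) were higher too, so that each of the 6 genes had a called probe set. In all 6 called probe sets the 3 EGC arrays lay above both ESC arrays, and the share of all probe sets that do so was not counted. The brightest Peg3 probe set differed by 0.49 (SE 0.26, adjusted p = 0.136). Peg3 101451_at (0.14, adjusted p = 0.602) and Igf2 98622_at (0.45, adjusted p = 0.0609) did not pass either. Ndn 94811_s_at lay lower in EGC without passing (-0.25, adjusted p = 0.318). Background calls were 38.6%, 20.5% higher and 18.1% lower, and the members' median difference was 0.59 against 0.04.
Mesenchyme markers were also higher in EGC (8 of 15 probe sets; summed signal 12.78 to 12.87 against 12.26 to 12.38 in ESC). MEF themselves had less Mest (7.80) and Peg3 96765_at (11.51) than EGC (9.00 and 12.33), and more Igf2, Ndn, Dlk1 and Impact. The part of the mesenchyme signal in the differences between EGC and ESC was not tested. Maternally expressed genes were even, with 2 of 19 higher and 2 lower: Meg3, a non-coding RNA that shares an imprinted domain with Dlk1, was higher by 0.87 and Cdkn1c lower by -1.52. Other paternally expressed genes had 6 of 15 probe sets higher and 5 lower. Uhrf1, which brings the maintenance methyltransferase to replicated DNA, was higher in EGC by 2.42.
Against fresh male E13.5 germ cells, the nearest group of the same sex to their source, EGC had more Impact (1.20, SE 0.21, 2.30-fold, adjusted p = 9.35e-05), Peg3 96765_at (1.11, SE 0.23, 2.16-fold, adjusted p = 0.000527), Mest (1.05, SE 0.21, 2.07-fold, adjusted p = 0.000386) and Peg3 161316_f_at (0.45, SE 0.12, adjusted p = 0.00595). Ndn 101059_at was lower (-0.41, SE 0.14, adjusted p = 0.0229). Igf2 98623_g_at and Dlk1 differed by -0.03 (SE 0.18) and -0.02 (SE 0.11), with overlapping arrays. Over all probe sets 27.7% were called, 12.7% higher and 14.9% lower; centring turned the higher share of the called from 45.97% to 56.26%. The Ndn call was lost after centring (adjusted p = 0.069) and without male PGC replicate 1 or 2 or EGC replicate 2 or 3. Without EGC replicate 3 Peg3 161316_f_at also lost its call (adjusted p = 0.0523), leaving 3 of the 5.

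Fibroblasts in culture were set against the fresh somatic cells of the gonad and mesonephros. They had far less Mest (-3.62, SE 0.17, 12.3-fold, adjusted p = 1.58e-16), less Peg3 (96765_at -1.95, SE 0.18, 3.86-fold, adjusted p = 5.15e-10) and less Dlk1 (-1.48, SE 0.09, 2.79-fold, adjusted p = 4.65e-14). Impact (0.67, SE 0.17, 1.60-fold, adjusted p = 0.00162) and Ndn by both probe sets (101059_at 0.27, adjusted p = 0.0431; 94811_s_at 0.52, adjusted p = 0.00202) were higher. Igf2 98623_g_at was level (difference 0.00, SE 0.15), although both groups lie close to the scanner's ceiling. With quantile normalization Igf2 was lower in MEF by -1.04 (adjusted p = 3.39e-05) and Ndn 101059_at turned to -0.12 (adjusted p = 0.307). The Ndn 101059_at call was lost without any of SGM replicates 1, 3 and 4 or MEF replicates 1, 2, 4 and 6, and that of Peg3 101451_at without SGM replicate 1 or 3 or MEF replicate 5 or 6, after centring and with the replicate block (-0.25, adjusted p = 0.158).
The tally was 3 higher and 5 lower, beside 44.3% of all probe sets called, 19.9% higher and 24.4% lower. Of all called, 44.85% were higher as deposited and 54.99% after centring. Imprint-keeping genes were lower in MEF, 8 of 16 probe sets with none higher: Trim28, the co-repressor that ZFP57 recruits, differed by -1.72 and Dnmt3a by -1.60. Mesenchyme markers were higher in MEF (9 of 15) and erythroid ones lower (6 of 6).

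Cultured pluripotent lines, taken as the mean of ESC and EGC, were lower than MEF in Igf2, Ndn, Impact and Dlk1, were higher in Mest, and gave no single direction for Peg3. Igf2 98623_g_at differed by -3.24 (SE 0.14, 9.45-fold, adjusted p = 8.51e-18), Ndn 101059_at by -2.66 (SE 0.10, 6.33-fold, adjusted p = 7.47e-19), Impact by -1.20 (adjusted p = 2.5e-07) and Dlk1 by -0.97 (adjusted p = 5.11e-11). Mest was 0.75 higher (SE 0.16, adjusted p = 0.000178) with overlapping arrays. Of the Peg3 probe sets, 96765_at was 0.57 higher (SE 0.17, adjusted p = 0.00526) and 101451_at lower (-0.50, SE 0.13, adjusted p = 0.00153), while 161316_f_at did not pass (0.16, adjusted p = 0.12). Taken singly, EGC passed against MEF for Mest (1.20, adjusted p = 2.61e-06) and Peg3 96765_at (0.82, adjusted p = 0.000955), and ESC did not (0.30, adjusted p = 0.223, and 0.33, adjusted p = 0.222). In total 2 were higher and 6 lower; of all probe sets 62.6% were called, 34.8% higher and 27.8% lower. By contrast 12 of 15 probe sets of other paternally expressed genes were higher in the pluripotent lines, led by Sfmbt2 (3.25), Gab1 (2.68) and Slc38a4 (1.55), and 15 of 16 of the imprint-keeping list. Of the mesenchyme markers, 12 of 15 were lower, and their part was not tested.

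Adult stem cells were compared with embryonic somatic cells as the mean of NSC and HSC against that of SGM and MEF. No member was higher and 8 of 10 were lower. Igf2 98623_g_at was 77.2-fold lower (-6.27, SE 0.13, adjusted p = 1.27e-24), with SGM and MEF near the ceiling named above. Impact was lower by 4.31-fold, Dlk1 4.11-fold and Ndn 101059_at 3.99-fold, none with overlapping arrays. Peg3 96765_at was 10.3-fold lower (-3.37, SE 0.17), a mean that rests mostly on HSC: HSC lay 4.39 below MEF, whereas NSC did not pass against MEF (MEF minus NSC 0.39, SE 0.23, adjusted p = 0.14) and lay 2.34 below SGM. Without the HSC group the Peg3 96765_at difference was -1.36 (adjusted p = 4.84e-06). Mest was lower by -1.72 (SE 0.15, adjusted p = 1.11e-10), but this mean hides NSC at 10.43 and HSC at 5.35. Without the HSC group, a choice made after the data were seen, Mest turned to 0.82 higher in NSC (adjusted p = 0.000907) and Ndn 94811_s_at rose from 0.04 to 0.82 (adjusted p = 8.01e-05). Age, tissue and culture medium cannot be told apart between these groups, although each side joins a cultured group (NSC or MEF) with a sorted one (HSC or SGM). The NSC and HSC arrays also differed from the others in their control rows (correlation with ESC of 0.223 to 0.332) and in the Gapdh 3′ minus 5′ difference, with group means of 0.90 and 1.00 against 2.65 to 4.00 in the other groups, and the part of this was not tested.
Calls over all probe sets were at 71.7%, 40.9% higher and 30.8% lower, so nearly any list has many calls here; the direction is given by the medians, -1.86 for the members and 0.08 for all. Mesenchyme markers were lower in 12 of 15 probe sets, and their part was not tested. Other paternally expressed genes did not all fall: 8 of 15 probe sets were higher, such as Mkrn3, a ubiquitin ligase (1.29), and Nnat, a small membrane protein of neurons (1.14), and 4 lower, such as Plagl1, a zinc-finger factor (-1.94).

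Pluripotent against somatic groups, the broadest contrast of the series, did not order the members. As the mean of 6 groups against the mean of 4, Ndn was lower by both probe sets (-1.32 and -1.31), Mest by -0.99, Dlk1 by -0.63 and Impact by -0.26 (adjusted p = 0.029), while Peg3 96765_at was 0.45 higher (adjusted p = 0.000624). Arrays overlapped in 5 of these 6. With 60.9% of all probe sets called, 28.3% higher and 32.5% lower, 6 of 10 is near the background. These values turn on which somatic cells are included and, for some probe sets, on the scaling. Without NSC and HSC, left out after the data were seen, Peg3 96765_at was -1.23, Peg3 161316_f_at -0.58 and Igf2 98623_g_at -3.03, where the full contrast gave 0.45, 0.11 and 0.10. Without MEF, Igf2 was 1.15 higher and Impact turned to 0.21 (adjusted p = 0.128). With all groups kept, quantile normalization made Igf2 98623_g_at 0.87 higher (adjusted p = 9.96e-08) and Peg3 161316_f_at 0.16 higher (adjusted p = 0.0134). Under it Impact lost its call (-0.20, adjusted p = 0.0682). The call of Impact was also lost without ESC replicate 2, either NSC array or HSC replicate 1.

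**Figure D3:**
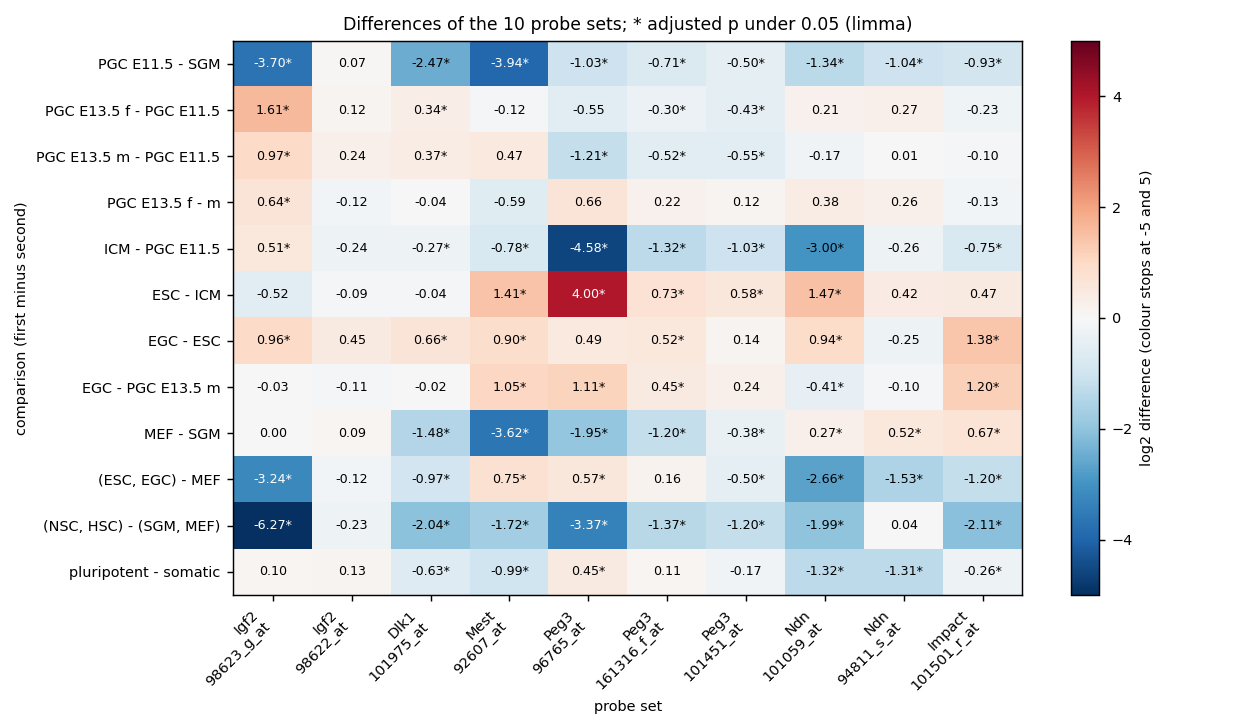
Log2 differences of the 10 member probe sets (columns) in the 12 comparisons (rows), first group minus second; red is higher, blue lower, and an asterisk marks an adjusted p under 0.05. PGC E11.5 against SGM is blue in 9 of 10 columns, EGC against ESC has 6 red calls, and the Igf2 probe set 98622_at has no call in any row.

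Partner genes of the members were looked at beside them. Igf1r, the signalling receptor of Igf2, was higher along with Igf2 in E13.5 germ cells than in the mixed-sex E11.5 ones. The difference was 0.37 in female (adjusted p = 0.0196) and 0.62 in male cells (adjusted p = 0.000172). Igf1r was also 0.86 higher in MEF than in SGM. Igf2bp1, which binds Igf2 mRNA, was 0.86 higher in PGC E11.5 than in SGM, while Igf2 was lower in PGC E11.5. Notch1 was 1.07 higher in female than in male E13.5 PGC, and Notch2 was -1.09 lower in PGC E11.5 than in SGM. In the whole list of 21 probe sets of 16 genes, PGC E11.5 had 6 higher and 9 lower than SGM, ESC had 4 higher and none lower than ICM, and EGC had 6 higher and 2 lower than ESC. Over all probe sets the higher and lower shares were 21.2% and 23.4%, 15.6% and 11.8%, and 20.5% and 18.1%, so the 4 and the 6 higher of the last pair of comparisons are near the background.

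By the highest Pearson correlation of the 10 group means, the probe sets of other genes most like each member were as follows; groups, not arrays, are the points, and no test is given. Closest to Igf2 98623_g_at was Lpar1 (r = 0.99), a receptor of lysophosphatidic acid, then Plagl1 (0.97), itself paternally expressed, and Axl (0.96), a receptor tyrosine kinase. Dlk1 was most like Kdr (0.98), a receptor of endothelial growth factor, Capn6 (0.98) and Mogs (0.97). The nearest to Mest was Sox11 (0.95), a transcription factor of progenitors, followed by Cbx5 and Rbl1 (0.92 each). For Impact they were Nnt (0.96), Acta2 (0.93), the smooth muscle actin, and Hspb8 (0.93). Peg3 and Ndn had less close matches, Pbrm1 (0.92) and Stx2 (0.92) at the top. Among the members themselves, Igf2 98623_g_at correlated with Impact at 0.81 and with Dlk1 at 0.80, and with Mest at only 0.26.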

How the data were processed

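Per the labels' protocols, total RNA was extracted on Qiagen columns with DNase, amplified in a pair of in vitro transcription rounds and labelled with biotin. The authors deposited log2 values of 12488 probe sets on 34 arrays; RMA is named in the submitters' processing notes, with no version, and no genome build is given in the sources used here. RMA levels are relative to the other arrays, and low signals are compressed. Signals of different probe sets are set beside each other only to name the brighter ones and to form the marker sums. In 2 columns every value equalled the mean of the other arrays of the group (within 1e-06; ESC replicate 3 and PGC E11.5 replicate 5). They were left out, and 66 control rows were not tested.

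Symbols came from the platform annotation (10833 probe sets with 1 symbol, 396 with several, 1193 with none), updated by gene ID for 10817. Differences come from a model of the 10 group means (limma 3.58.1, lmFit and eBayes, under R 4.3.3) with 22 residual and 4.99 prior degrees of freedom, in which all groups share 1 estimate of spread. P-values are two-sided and Benjamini-Hochberg adjusted over 12422 probe sets within a comparison; "called" means below 0.05. Errors are SE for differences and SD for group values. If replicates were not separate cultures or animals, p-values measure only the spread between arrays. The script was tested on simulated data. Named genes of a list are up to 3 called in each direction with the largest difference, by each gene's brightest probe set; those printed are a part of these. The members and lists were chosen with earlier results of these data known. Alternatives covered columns, samples in the fit, replicate block, array weights, scaling, filters, probe sets and each array left out.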

Additional observations from a re-analysis of the deposited data

Results flagged for a closer look

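The brighter Igf2 probe set (98623_g_at) was higher in female than in male germ cells at E13.5. Both sexes were set against the same mixed-sex E11.5 arrays, so a rise within each sex was not measured. The difference was 0.64 on the log2 scale (SE 0.18, limma adjusted p = 0.0311, higher in 3 of 3 female arrays than in any male array). It lost its call in 4 of the 6 fits that left out an array of these groups, so it is reported with that limit. The second Igf2 probe set differed by -0.12 (adjusted p = 0.721). No array stood far from the others of its group among the 30 sets of 4 to 10 arrays checked, where chance would give about 1 in 20. These sets cover PGC E11.5, SGM and MEF only. Groups with fewer than 4 arrays were not checked.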

How the results depend on the processing

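Counts are of member probe sets called, out of 10. With only the compared groups fitted, female against male E13.5 PGC gave 2 in place of 1, and ICM against PGC E11.5 gave 5 in place of 8; array weights gave 4 for female against male. Testing 1 brightest probe set a gene leaves 6 members by construction and gave 2 for female PGC E13.5 against E11.5, 3 for ESC against ICM and 5 for MEF against SGM. Testing only plain _at probe sets also leaves 6 and drops the bright Igf2 probe set: it gave 5 for PGC E11.5 against SGM, 2 and 0 for female E13.5 PGC against E11.5 and against male, 5 for ICM against PGC E11.5, 3 for EGC against ESC and for EGC against male E13.5 PGC, and 5 for MEF against SGM, for cultured lines against MEF and for adult against embryonic somatic cells. Leaving out an array gave 1 to 5 for female E13.5 PGC against E11.5, 0 to 1 for female against male, 5 to 8 for ICM against PGC E11.5, 4 to 8 for ESC against ICM and 3 to 5 for EGC against male E13.5 PGC; the other counts kept within 1.5 times.

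Signs turned under quantile normalization for MEF against SGM (Igf2 98623_g_at -1.04, Ndn 101059_at -0.12), and, in alternatives chosen after seeing the data, without HSC for Mest in adult against embryonic somatic cells (0.82), and in pluripotent against somatic groups without MEF for Impact (0.21) and without NSC and HSC for Peg3 161316_f_at (-0.58), Peg3 96765_at (-1.23) and Igf2 98623_g_at (-3.03). Apart from the choice of groups and probe sets, the cause was not tested. Centring moved the median of all probe sets by at most 0.09 and the neighbouring pairs called in the order of levels from 30 to 29. The labels tie no replicate number to a shared litter or day, and residuals of like-numbered arrays correlated at -0.53 to 0.48, so numbers were not taken as pairs. With the replicate block, 7 in place of 8 members were called for ICM against PGC E11.5 and for MEF against SGM, 6 in place of 5 for male PGC E13.5 against E11.5 and 7 in place of 6 for pluripotent against somatic groups; the other counts did not change. Signals near 6 and near 16 limit what Igf2 and Peg3 101451_at can show.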
